A study of Rattus norvegicus with 180 samples.

Results

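The microRNAs miR-208 and miR-499 were followed over a rat organ atlas through 3 entries of the array: rno-miR-208, rno-miR-208_v15.0 and rno-miR-499. They were taken by these names as the array design lists them, 3 of 717 rat microRNAs on the array, and rno-miR-208_v15.0 is the entry whose name carries an older miRBase release. RNA from 55 organs of male Sprague-Dawley rats, 10 weeks old, was measured on 180 single-colour Agilent arrays. Rats 4, 5 and 6 were perfused with saline before the organs were taken and gave all 55 organs, and rats 1, 2 and 3 were not perfused and gave heart atrium, heart interventricular septum, kidney, liver and lung (15 arrays). No rat was treated or genetically altered, and each array held 1 organ of 1 rat. Each microRNA was read by 20 spots with 2 probe sequences. Values below are scaled signals: the background-subtracted brightness of those spots, scaled between arrays, on a scale with no absolute unit. A microRNA counted as detected on an array if the scanner software marked more than 50% of its usable spots as well above background.

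These microRNAs are encoded inside genes of myosin heavy chain, the motor protein of muscle. miR-208 (now miR-208a) lies in Myh6, the gene of the cardiac alpha myosin; its relative miR-208b lies in Myh7, the gene of the beta myosin of heart and slow muscle fibres; and miR-499 lies in Myh7b, a slow-type myosin gene. They are known for keeping slow myosin programmes on in heart and in slow skeletal muscle, through repression of transcriptional repressors. In RefSeq (assembly GRCr8), the precursors Mir208a, Mir208b and Mir499a fell within the bounds of Myh6, Myh7 and Myh7b, and Mir208a and Mir208b also within those of unnamed long non-coding RNAs, Mir208a in addition within those of another microRNA gene, Mir3546.

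The mature sequences are shown because the related seeds are what the family is grouped by. They are from RefSeq (GRCr8), written 5′ to 3′, with the seed, bases 2 to 8, in capitals. miR-208a-3p is at chr15:32395568-32395585, minus strand, miR-208b-3p at chr15:32421648-32421665, minus strand, and miR-499-5p at chr3:164570616-164570636, plus strand.
rno-miR-208a-3p: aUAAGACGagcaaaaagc
rno-miR-208b-3p: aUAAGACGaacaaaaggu
rno-miR-499-5p: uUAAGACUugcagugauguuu
Of 693 mature names in the table, miR-208a-3p and miR-208b-3p were the only 2 with their seed, and miR-499-5p was the only 1 with its own. Over bases 2 to 7 the 3 shared the same letters and no other rat entry had them. miR-208a-3p and miR-208b-3p differed at 3 of 18 positions (G10A, A16G and C18U, counted from the 5′ end, miR-208a first), all outside the seed. Which bases the array's probes pair with is not given in the sources used here, so how far a probe of one reads the other could not be worked out from sequence.
The precursors of the members are shown with the mature arm measured here in capitals, Mir208a at chr15:32395552-32395634 on the minus strand and Mir499a at chr3:164570612-164570676 on the plus strand.
Mir208a: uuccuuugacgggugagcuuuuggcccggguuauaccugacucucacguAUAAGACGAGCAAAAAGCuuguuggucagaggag
Mir499a: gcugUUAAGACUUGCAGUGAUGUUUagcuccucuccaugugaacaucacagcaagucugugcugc
The arm of miR-208a lay on the 3′ side of its precursor, at bases 50 to 67 of 83, and that of miR-499 on the 5′ side, at bases 5 to 25 of 65.

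Between 86 and 244 microRNAs were detected per array, 122 to 153 on the heart arrays and 110 to 177 on the 24 arrays of striated muscle organs from perfused rats, and no spot was saturated. The lowest detected signal on an array, under which weak signals could not be told from background, ran from 7.69 to 13.2 in soleus, from 7.89 to 25.6 in gastrocnemial muscle and from 115 to 273 in pancreas. In 8 arrays of rat 5, among them those of soleus, gastrocnemial and femoris muscle, another label of the same sample names rat 6; the number in the title was used, and the miR-499 comparisons that use these arrays are given without them in the closing section. The labelled muscles carried the microRNAs of striated muscle. miR-1 and miR-133a were detected on 12 of 12 heart arrays and on 3 of 3 arrays each of soleus, interseptum, gastrocnemial and femoris muscle, and miR-206, of skeletal muscle, on 3 of 3 arrays of each of those muscles and on 0 of 12 heart arrays. The labels say no more of the interseptum than its name, and the study lists it among the muscles.

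miR-208 was detected on heart arrays and on none of the other organs measured. By rno-miR-208_v15.0 it was detected on 12 of 12 heart arrays and on 0 of the other 168. In perfused rats 4, 5 and 6 the signals of this entry were 218, 258 and 233 in the atrium and 166, 222 and 241 in the interventricular septum. In rats 1, 2 and 3, not perfused, they were 219, 190 and 227 in the atrium and 235, 245 and 194 in the septum. All 12 heart values thus lay between 166 and 258, while the 168 other arrays ran from -58.2 to 0.84, with no overlap. The newer entry, rno-miR-208, gave the same split. Its signals were 20.3, 21.7 and 30.4 in the atrium and 16.2, 19.9 and 30.4 in the septum of rats 4, 5 and 6, and 20.2, 21.5 and 19.0 in the atrium and 20.8, 22.2 and 17.6 in the septum of rats 1, 2 and 3. It was detected on 11 of 12 heart arrays (the atrium of rat 3, at 19.0, was not well above background) and on 0 of 168 others, which ran from -58.2 to -0.50. The entries differ in their probes, so their brightness is not compared.

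Outside the heart only a bound can be given for the difference, since no array rose above background there. A bound sets the mean of the heart part in perfused rats against, on each array of the other organ, the lowest signal that was still detected or the probe's own signal, whichever was higher, as means of log2 values. By rno-miR-208_v15.0, the septum was at least 19.3-fold higher than soleus, 14.6-fold higher than interseptum, 13.3-fold higher than gastrocnemial muscle and 10.1-fold higher than femoris muscle. The atrium was at least 22.0-fold higher than soleus, 16.6-fold higher than interseptum, 15.2-fold higher than gastrocnemial and 11.5-fold higher than femoris muscle. Over the 53 organs outside the heart the bounds for the septum ran from 1.08-fold in pancreas to 53.6-fold in lung, with a median of 17.9. The entry rno-miR-208 gave bounds over 1 for 46 of 53 organs and a median of 2.26 for the septum over all organs with such a bound. Both entries passed the filter on low values in the fit of the 8 striated muscle organs through the heart arrays alone and were at the floor in the others, so no p-value of that fit is given for them.

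**Figure D1:**
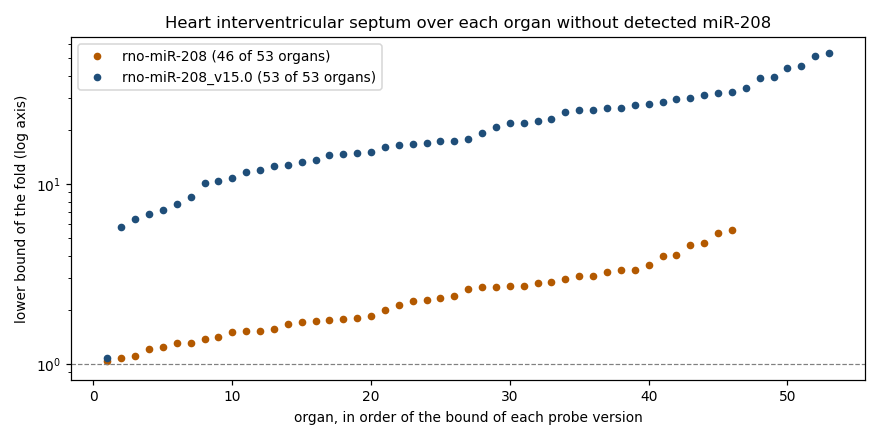
Lower bound of the fold of heart interventricular septum over each organ in which miR-208 was not detected (y axis, log scale), with the organs of each entry in order of the bound (x axis). The entry rno-miR-208_v15.0 has a bound over 1 in 53 of 53 organs, up to 53.6, and rno-miR-208 in 46 of 53, up to 5.54.

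Of the other arms, only that of miR-208a was detected throughout the heart. rno-miR-208*, the opposite arm of the miR-208a precursor, was detected on 12 of 12 heart arrays, at 15.3 to 25.2, and on 1 of 168 others, the array of prostate_other of rat 4 at 17.5, where rats 5 and 6 had 4.93 and 1.37. rno-miR-208b-5p and rno-miR-499*, the opposite arms of the miR-208b and miR-499 precursors, were detected on 0 of 180 arrays. rno-miR-208b-3p, the mature arm of the Myh7 microRNA, was detected on 1 of 180: soleus of rat 5, at 16.9. In soleus of rats 4 and 6 it read 1.13 and 2.14, and on the 12 heart arrays between -0.59 and 1.34, none of them well above background.

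Between the 2 parts of the heart and between perfused and not perfused rats, no difference of the 3 members passed the test in limma. The question of the first comparison was whether the members differ between atrium and septum, in 6 rats, and of the second whether blood left in the heart changes them, in 3 rats against 3. For rno-miR-208_v15.0 the septum minus atrium difference was -0.05 on the log2 scale (95% confidence interval -0.29 to 0.18, adjusted p = 0.905 in limma), and for rno-miR-208 it was -0.08 (-0.42 to 0.26, adjusted p = 0.905). Across all microRNAs tested in the heart, 0% of 132 were called in this comparison, 0 had an unadjusted p under 0.05, and the median difference was -0.08.

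miR-499 was strong on every heart array. Its signals were 519, 515 and 726 in the atrium and 515, 445 and 665 in the septum of perfused rats 4, 5 and 6. They were 440, 526 and 529 in the atrium and 424, 511 and 501 in the septum of rats 1, 2 and 3. Within each rat the septum was the lower, in 6 of 6 rats, by 0.01 to 0.21 on the log2 scale, while the groups overlapped. The difference of -0.09 (SE 0.12, interval -0.36 to 0.19) had an adjusted p of 0.905 in limma, and of 0.296 with rat as a block. An exact permutation test that flipped the sign within each of the 6 rats gave p = 0.03125, the smallest it can give, and 0.09375 after adjustment over the 3 members. The direction did not hold under other scalings: it was 0.01 in the authors' table, 0.02 after quantile normalization and 0.06 when scaled over all microRNAs.

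Perfused minus not perfused hearts differed by 0.19 for miR-499 (interval -0.08 to 0.46), 0.02 for rno-miR-208_v15.0 (-0.22 to 0.26) and 0.16 for rno-miR-208 (-0.18 to 0.50), each with an adjusted p of 0.999 in limma. Of all microRNAs tested, 1.52% were called in this comparison, 0.758% with rat as a block and 8.82% without rat 1. The main fit takes the 2 heart parts of a rat as separate arrays. Rat 6 had the highest miR-499 and rno-miR-208 in both heart parts; without it the differences were 0.03 and -0.06. The means of rats 4, 5 and 6 overlapped those of rats 1, 2 and 3 for every member, and an exact permutation test of 3 against 3 rats, which cannot go below 0.1, gave 0.5 for miR-499, 1 for rno-miR-208_v15.0 and 0.7 for rno-miR-208. miR-451, a red blood cell microRNA, ran from 223 to 800 in hearts that were not perfused and from 15.4 to 86.8 in perfused ones, and miR-144, of the same cells, was detected on 3 of 6 and 0 of 6 of these arrays. Whether the septum minus atrium difference changed with perfusion was tested as an interaction, with differences of -0.06 for miR-499, -0.27 for rno-miR-208_v15.0 and -0.14 for rno-miR-208 and an adjusted p of 0.992 for each. Of the striated muscle list 4 were tested in the heart and 0 passed in either comparison.

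**Figure D2:**
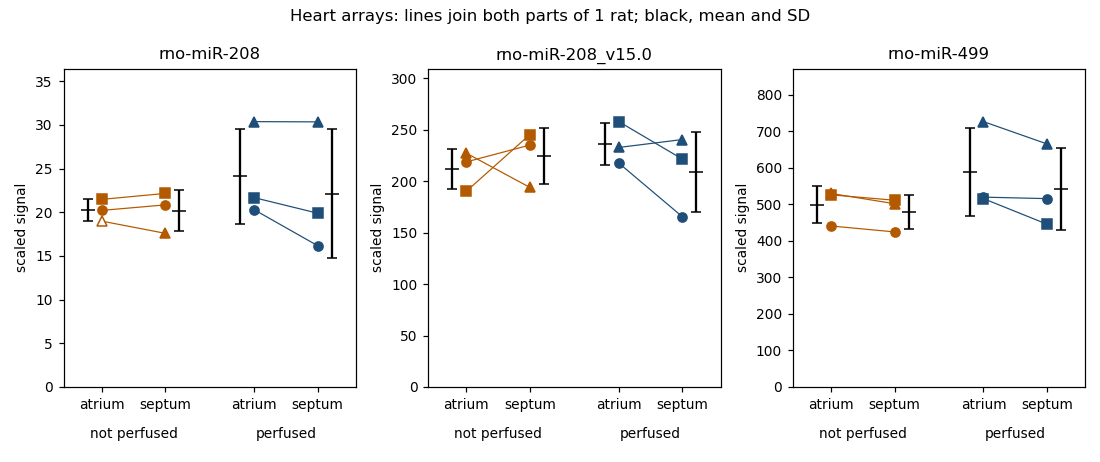
Scaled signal (y axis, from 0) of the 3 entries on the 12 heart arrays, with lines joining atrium and septum of 1 rat and black marks for the mean and SD of 3 rats; the open symbol was not well above background. All miR-499 values lie between 424 and 726, all rno-miR-208_v15.0 values between 166 and 258, and the groups overlap.

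miR-499 was led by the heart and by 2 muscles, and reached further organs at low levels. It was detected on 93 of 180 arrays: on 3 of 3 perfused arrays in 14 organs, on 1 or 2 in 26 and on none in 15. Its mean signal ± SD (n = 3 perfused rats) was 587 ± 120 in heart atrium, 542 ± 112 in the interventricular septum, 362 ± 60.2 in interseptum and 354 ± 180 in soleus. The order went on with brown adipose tissue at 89.6 ± 15.0, gastrocnemial muscle at 70.1 ± 50.1, kidney at 60.6 ± 3.37, eyeball at 37.7 ± 9.18, femoris muscle at 35.9 ± 24.1 and Harderian gland at 35.1 ± 14.6, and 48 of 55 organs had a mean under 50. These include the 15 organs detected on no array, whose means and places in the order are not measured levels. Of the 54 pairs of neighbours in this order, 51 had overlapping ranges of the 3 rats. The 3 pairs without overlap were septum above interseptum, soleus above brown adipose tissue and kidney above eyeball, so that the 2 heart parts were not separated from each other, nor interseptum from soleus. In bulk RNA such as this, fewer cells of a type and less microRNA per cell cannot be told apart.

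**Figure D3:**
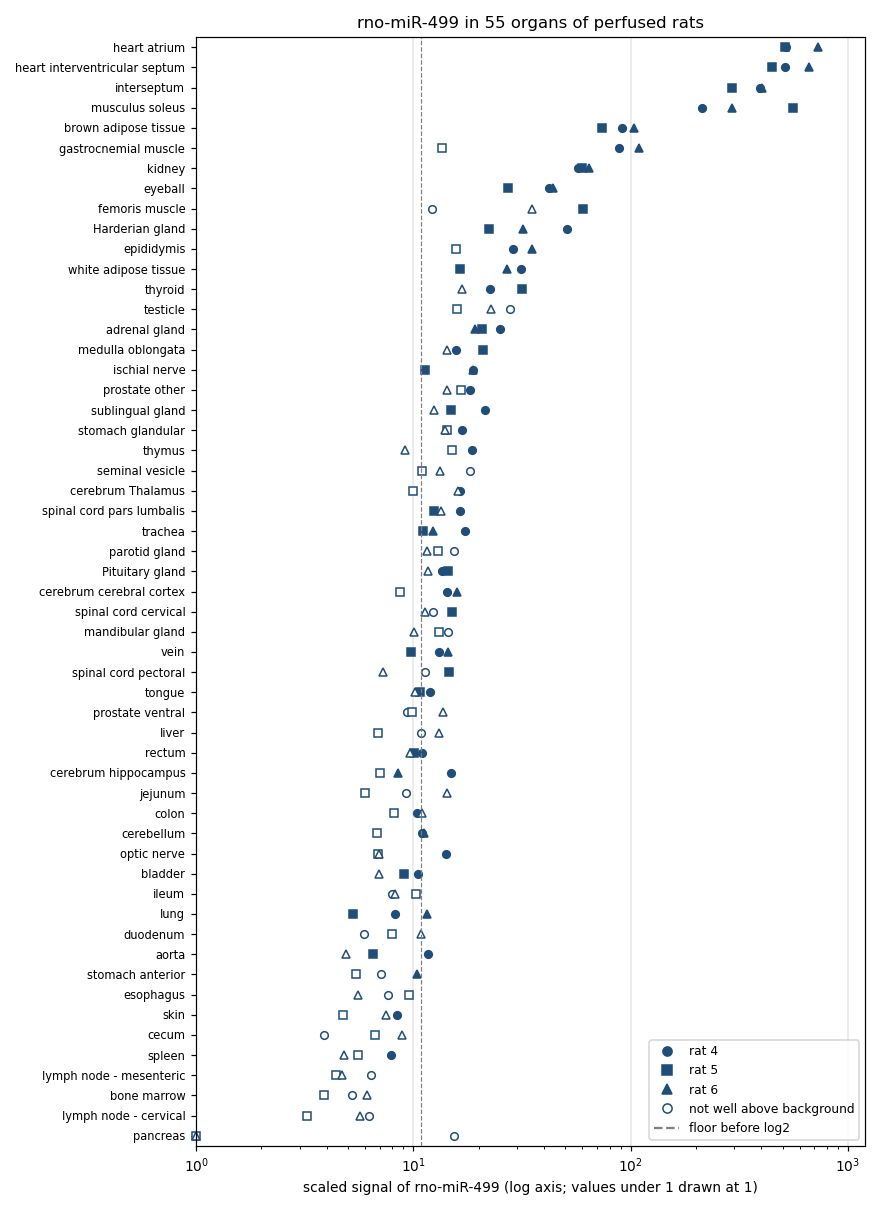
Scaled signal of rno-miR-499 (x axis, log scale) in 55 organs of perfused rats, in order of the mean, with 1 symbol for each of 3 rats; open symbols were not well above background and the dashed line is the floor set before log2 values were taken. Heart atrium, septum, interseptum and soleus lie between 214 and 726, and the next organ, brown adipose tissue, between 73.9 and 104.

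Soleus and interseptum had more miR-499 than the limb muscles gastrocnemial and femoris. Soleus is a slow, oxidative postural muscle and gastrocnemius a mostly fast one. The signals of rats 4, 5 and 6 were 214, 557 and 292 in soleus and 392, 293 and 402 in interseptum. In gastrocnemial muscle they were 88.0, 13.6 and 109, with rat 5 not well above background. In femoris muscle they were 12.2, 60.3 and 35.2, with only rat 5 detected. Folds were also taken from means of log2 values, with the arrays that were not well above background at their bound. Soleus was then 5.82-fold above gastrocnemial muscle (measured on 2 of 3 arrays) and 9.06-fold above femoris muscle (measured on 1 of 3). Interseptum was 6.39-fold and 9.96-fold above them. The folds over gastrocnemial muscle are no lower limit, since the ratio of the mean signals is smaller. Without rat 5 the log2 differences from gastrocnemial muscle were 1.35 for soleus and 2.02 for interseptum. The log2 differences below take the signals of arrays that were not well above background as they are. Every soleus and every interseptum array was above every array of the other 2 muscles, a split to which an exact permutation test of 3 against 3 can give no p below 0.1.

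Soleus minus gastrocnemial muscle was 2.69 on the log2 scale (SE 0.58, interval 1.47 to 3.90, adjusted p = 0.00508 in limma over 178 microRNAs), the largest difference in either direction among those tested, where 18.5% were called, 1.12% as higher and 17.4% as lower (12.9% and 1.69% when arrays were scaled over all microRNAs). Within rats 4, 5 and 6, whose soleus and gastrocnemial arrays each lay on 1 slide, the difference was 1.28, 5.35 and 1.42. Without rat 5 it was 1.35 (adjusted p = 0.135), with 2 microRNAs showing a larger positive difference. Without the 8 arrays of doubtful rat number it was 1.35 and 0.120, again with 2 larger. Without rat 6 it was 3.32 and 0.0594, and in a fit of only these organs 2.69 and 0.0800. No microRNA at all was called in any of these fits. Soleus minus femoris muscle was 3.46 (SE 0.58, interval 2.25 to 4.68, adjusted p = 3.04e-04), with 34.8% called, 9.55% as higher and 25.3% as lower (21.3% and 4.49% when scaled over all). It was 4.13, 3.21 and 3.05 within rats 4, 5 and 6, and between 3.13 and 3.67 with any 1 rat left out, with adjusted p-values up to 0.0161.

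Interseptum minus gastrocnemial muscle was 2.82 (SE 0.58, interval 1.61 to 4.04, adjusted p = 0.00356), where 4.49% of microRNAs were called, 2.81% as higher and 1.69% as lower (1.69% and 1.69% after quantile normalization). It was 2.16, 4.43 and 1.88 within rats 4, 5 and 6, and 2.02 without rat 5 (adjusted p = 0.00831). Its adjusted p was 0.0606 without rat 4 (difference 3.16) and 0.0573 without rat 6 (3.29), and 0.110 in a fit of only these organs. Interseptum minus femoris muscle was 3.60 (SE 0.58, interval 2.39 to 4.81, adjusted p = 2.30e-04), where 20.2% were called, 13.5% as higher and 6.74% as lower (18.5% and 4.49% when scaled over all, 8.43% and 6.18% after quantile normalization). Without rat 4 it was 2.90 with an adjusted p of 0.0852. The interseptum and femoris arrays of a rat never shared a slide, so slide and organ cannot be told apart there. Those of interseptum and gastrocnemial muscle shared a slide only in rat 4. No microRNA had a larger positive difference than miR-499 in either comparison, but 1 had in interseptum minus gastrocnemial muscle with a floor 4 times lower or without the 8 arrays. With another background correction (normexp with an offset of 50), which pulls dim signals together, the 4 differences between these muscles were 1.19 to 1.55 and none was called, with adjusted p-values from 0.126 to 0.598.

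The calls of the other muscle microRNAs in 3 of these 4 comparisons depended on how the arrays were scaled. Of 8 entries listed for striated muscle, 7 were on the array and 5 were tested here: miR-1, miR-133a, rno-miR-133a*, miR-133b and miR-206. In soleus minus gastrocnemial muscle, 0 were higher and 3 lower, with a median difference of -0.90 against -0.25 over all microRNAs: miR-1 fell by 1.21 (adjusted p = 0.00741), rno-miR-133a* by 0.97 (0.0171) and miR-133b by 0.90 (0.0199). In soleus minus femoris muscle, 0 were higher and 4 lower (median -1.003, against -0.16 over all), and in interseptum minus femoris muscle 0 were higher and 1 lower (median -0.42, against 0.09). In interseptum minus gastrocnemial muscle 0 of 5 passed in either direction (median -0.32, against 0.04). miR-206, of skeletal muscle, was the 1 entry of the list with a positive difference for soleus, in 3 of 3 rats against each muscle: 0.64 over gastrocnemial (adjusted p = 0.171) and 0.69 over femoris muscle (interval 0.03 to 1.34, unadjusted p = 0.0402 and adjusted p = 0.0929 in limma), neither of which passed. Under other scalings fewer of the list were lower. In soleus minus gastrocnemial muscle it was 0 of 5 in the authors' table and when scaled over all microRNAs. It was also 0 of 5 without rat 5, without rat 6, without the 8 arrays of doubtful rat number, with normexp and in a fit of only these organs. In soleus minus femoris muscle it was 2 and 1 of 5 in the authors' table and when scaled over all microRNAs. After quantile normalization 0 and 1 of 5 were lower, where miR-1 and miR-133b came out with a difference of exactly 0 in both comparisons and so could not be called. miR-133a and rno-miR-133a*, at -0.73 and -0.80 over gastrocnemial muscle, did not pass there either (adjusted p = 0.204 and 0.152). miR-206 then passed as higher in soleus when scaled over all, by 1.16 over gastrocnemial (adjusted p = 0.0368) and 1.21 over femoris muscle (0.0164), and in the authors' table by 1.01 over femoris muscle (0.0345). The lower entry in interseptum minus femoris muscle was called when scaled over all and not in the authors' table or after quantile normalization. In the main scaling miR-1 was at 37675, 18587 and 20837 in soleus of rats 4, 5 and 6, below every value of gastrocnemial muscle (48184, 67983 and 54598) and of femoris muscle (72141, 61861 and 70215).

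The test did not separate soleus from interseptum in miR-499, nor femoris from gastrocnemial muscle. Soleus minus interseptum was -0.14 (interval -1.35 to 1.08, adjusted p = 0.976) where 28.7% of microRNAs were called, 2.25% as higher and 26.4% as lower (2.81% and 0.562% when scaled over all). Its sign turned under other scalings, being 0.29 when scaled over all microRNAs. Femoris minus gastrocnemial muscle was -0.78 (interval -1.99 to 0.44, adjusted p = 0.696), where 0.562% were called. Rat 5 decided this value: the difference was 2.15 in rat 5 but -2.85 in rat 4 and -1.63 in rat 6, and without rat 5 it was -2.24 with an adjusted p of 0.0171 in limma, where neither of the femoris arrays left was well above background.

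**Figure D4:**
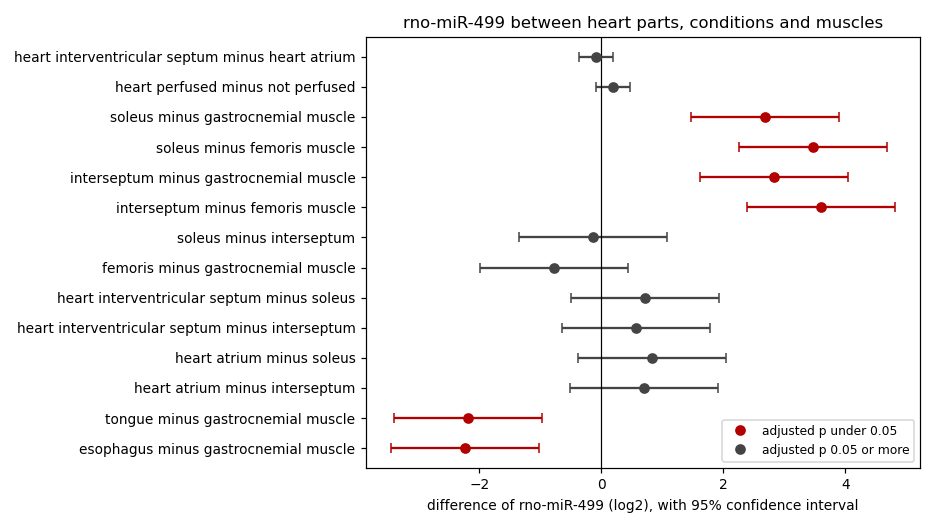
Difference of rno-miR-499 on the log2 scale (x axis) with its 95% confidence interval for the 14 comparisons (y axis), in red where the adjusted p was under 0.05. Soleus and interseptum lie above gastrocnemial and femoris muscle by 2.69 to 3.60, and the heart comparisons have intervals that hold 0. Esophagus was at the floor on every array, so its difference is set against the floor.

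Whether the heart was separated from the 2 muscles with most miR-499 depended on the scaling: the main fit called none of these 4 differences, and scaling over all microRNAs called 3, septum minus interseptum at 1.73 (adjusted p = 0.0180), atrium minus interseptum at 1.70 (0.0206) and septum minus soleus at 1.44 (0.0466). Septum minus soleus was 0.71 (interval -0.50 to 1.92, adjusted p = 0.374), where 48.9% of microRNAs were called (19.1% as higher, 29.8% as lower, but 45.5% and 18.5% when scaled over all). Septum minus interseptum was 0.57 (-0.64 to 1.79, adjusted p = 0.447), where 49.4% were called (7.3% as higher, 42.1% as lower, but 47.2% and 17.4% when scaled over all). Atrium minus soleus was 0.83 (-0.39 to 2.04, adjusted p = 0.285), where 46.1% were called (19.7% as higher, 26.4% as lower, but 41% and 19.1% when scaled over all). Atrium minus interseptum was 0.69 (-0.52 to 1.90, adjusted p = 0.371), where 44.9% were called (7.3% as higher, 37.6% as lower, but 46.1% and 16.9% when scaled over all). Against interseptum every rat had the higher level in both heart parts, by 0.39 to 0.85, and a fit of only those organs called both differences, with adjusted p-values of 0.0365 for the septum and 0.0168 for the atrium. Against soleus, rats 4 and 6 were higher in the heart by 1.19 to 1.31 and rat 5 lower by 0.11 to 0.32. Without rat 5 the difference was 1.23 for the septum (adjusted p = 0.0261 in limma) and 1.30 for the atrium (0.0203). The muscle list had 5 of 5 lower in septum minus soleus, septum minus interseptum and atrium minus interseptum and 4 of 5 in atrium minus soleus, but 1 or 2 of 5 in the authors' table, after quantile normalization and when scaled over all. miR-206, which was detected on no heart array, passed the filter through skeletal muscle and had to be lower. The median difference of all microRNAs in septum minus interseptum turned from -0.43 to 0.14 in the authors' table, 0.07 after quantile normalization and 0.46 when scaled over all.

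Tongue and esophagus, also organs with striated muscle, had little or no miR-499. The signals in rats 4, 5 and 6 were 11.9, 10.8 and 10.2 in tongue, detected in rats 4 and 5, and 7.69, 9.54 and 5.54 in esophagus, detected in none. On the same arrays miR-1 was at 10475, 10224 and 11448 in tongue and at 7728, 8583 and 3195 in esophagus, and miR-206 at 1575 to 1993 and 1081 to 2662. Tongue minus gastrocnemial muscle was -2.18 for miR-499 (SE 0.58, interval -3.39 to -0.97, adjusted p = 0.00350), where 57.3% of microRNAs were called, 16.3% as higher and 41% as lower (21.3% and 24.7% when scaled over all). In esophagus minus gastrocnemial muscle 68% were called (24.2% as higher, 43.8% as lower). All 3 esophagus values of miR-499 lay under the floor of 10.8. Its difference of -2.23 is therefore the floor minus gastrocnemial muscle, and no p-value of the main fit is given for it. Gastrocnemial muscle, detected on 2 of its 3 arrays, was 3.79-fold above the bound of esophagus. This is no lower limit, since its mean takes in the signal of rat 5, which was not well above background. The muscle list was lower in the same comparisons, with 5 of 5 lower in each (3 of 5 after quantile normalization, where miR-1 and miR-133b did not pass and were at exactly 0 in tongue) and medians of -2.14 and -2.82, and their part in the result was not tested. In rats 5 and 6 tongue too lay under the floor (10.76 in rat 5, with the floor at 10.83). The difference of -0.33 in rat 5, the same for both organs, is no measured difference. It sets the floor against a gastrocnemial signal of 13.6 that was not well above background. The adjusted p for tongue was 0.0743 without rat 4 (difference -1.83) and 0.129 without rat 6 (-1.61). Esophagus, at the floor, was at -1.83 and -1.68 in the same fits. Against soleus and interseptum, esophagus was lower by at least 24.4-fold and 26.8-fold. Neither the tongue nor the esophagus array of a rat shared a slide with its gastrocnemial array, so slide and organ cannot be told apart in those comparisons.

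**Figure D5:**
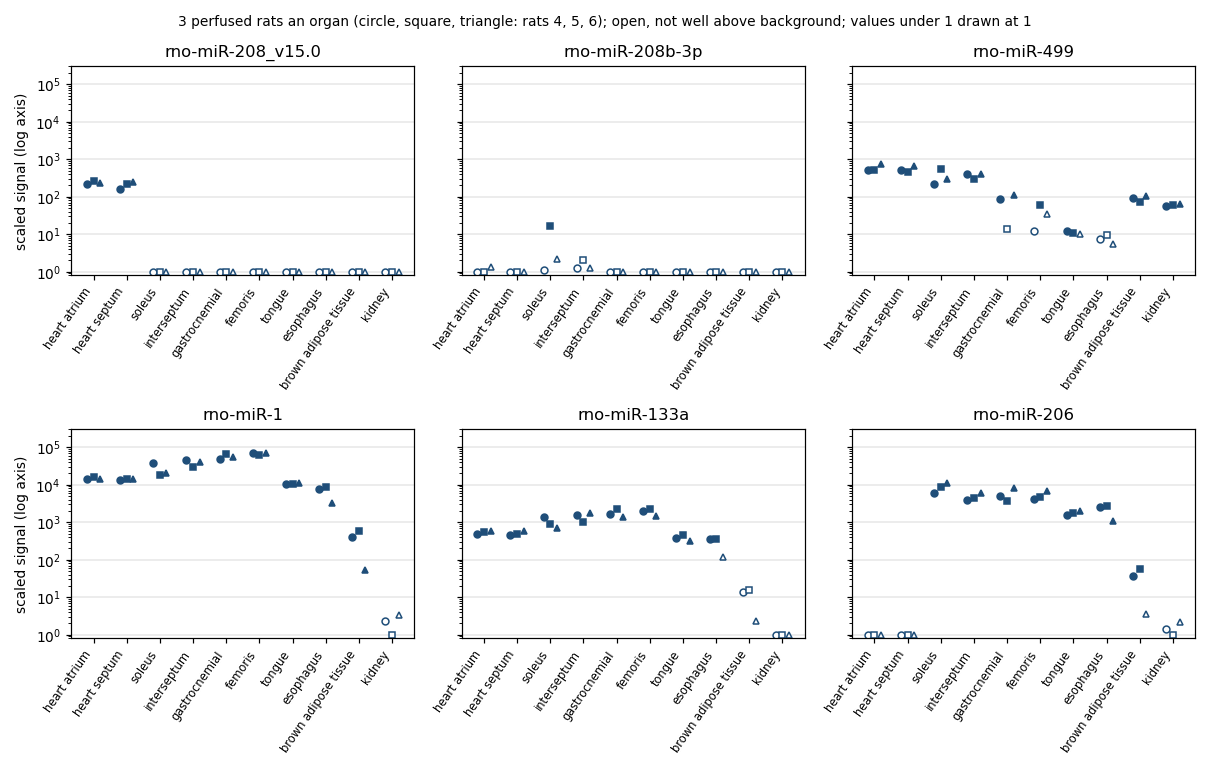
Scaled signal (y axis, log scale) of rno-miR-208_v15.0, rno-miR-208b-3p, rno-miR-499, miR-1, miR-133a and miR-206 in 8 striated muscle organs, brown adipose tissue and kidney, with 1 symbol for each of 3 perfused rats and open symbols where not well above background; values under 1 are drawn at 1. rno-miR-499 is at 57.5 to 64.2 in kidney, where miR-1, miR-133a and miR-206 are all open, and rno-miR-208b-3p is filled on 1 array, soleus of rat 5.

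miR-499 was also measured in organs that are not muscle. In kidney it was detected on 6 of 6 arrays, at 57.5, 60.0 and 64.2 in perfused rats 4, 5 and 6 and at 58.2, 49.1 and 59.3 in rats 1, 2 and 3, with overlapping ranges. On these 6 arrays miR-1 (0.53 to 3.40), miR-133a (-0.93 to 0.73) and miR-206 (-0.95 to 2.25) were detected on none, and miR-133b, which was detected on 145 of 180 arrays of the series, on 4, at 8.95 to 20.5. In brown adipose tissue the signals were 91.1, 73.9 and 104. miR-1 was detected there in all 3 rats, at 397, 595 and 52.2, and miR-206 at 37.0, 57.3 and 3.60, the last not detected. The part of muscle in the miR-499 of this organ was not tested. White adipose tissue held 31.5, 16.4 and 26.8, all detected, beside miR-1 at 34.7, 45.5 and 40.9 and no detected miR-206.

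Of the 14 organs with miR-499 on 3 of 3 arrays, adrenal gland (25.1, 20.8 and 19.2) was the only 1 with no detected miR-1, miR-133a, miR-133b or miR-206. In eyeball and Harderian gland, a gland of the orbit, miR-499 stood at 42.1, 27.2 and 43.9 and at 51.0, 22.4 and 31.9. There miR-1 varied between rats far more than miR-499. It read 214, 608 and 1143 in eyeball and 956, 355 and 13.7 in Harderian gland, the last not detected. The part of orbital muscle in these values was not tested. Of the other organs of both conditions, lung read up to 11.6 in perfused rats and was detected on 3 of 3 arrays. Liver read up to 13.2 there but was detected on 0 of 3. The lowest detected signal on liver arrays was 34.1 to 39.2, so no level can be given for it.

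The 2 probe sequences of miR-499 gave like differences between heart parts and among the limb muscles. Soleus minus gastrocnemial muscle was 2.58 by the first and 2.71 by the second, soleus minus femoris muscle 3.30 and 3.39, and septum minus atrium -0.10 and -0.08. The first was detected on 64 arrays, the second on 127, so the fainter organs rest mostly on the second. Esophagus was under or near the floor by both, with a mean of 3.26 (0 of 3 arrays detected) by the first and 11.9 (1 of 3) by the second. Its difference from gastrocnemial muscle is therefore not compared between them. The log2 signals of both had a Pearson r of 0.975 over the 127 arrays with either detected, a description across arrays that share rats. For rno-miR-208_v15.0 both sequences were detected on 12 arrays, all of heart, and for rno-miR-208 the first on 7 and the second on 12. In septum of perfused rats the first sequence of rno-miR-208 had a mean of 9.57 (1 of 3 arrays detected), under the floor of 10.8. The second had 34.7 (3 of 3), so the heart values of this entry above the floor rest mostly on the second. Soleus was detected by neither, so their differences from it are not compared.

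Among the 377 microRNAs detected on at least 3 arrays of perfused rats, those whose pattern over the 55 organs was most like the members' were found by the Pearson r of log2 organ means, a description over organs that share 3 rats. For rno-miR-208_v15.0 they were rno-miR-208* (r = 0.984), rno-miR-490 (0.766), miR-133a (0.393), miR-1 (0.376) and rno-miR-133a* (0.376), and rno-miR-208 gave the same 5 in this order, with r = 0.983 for the first. rno-miR-490 had its highest 2 organs in atrium and septum, like the member. With 53 of 55 organs at the floor these values rest on the 2 heart organs. For miR-499 the most alike were rno-miR-22* (0.685), rno-miR-22 (0.675), rno-miR-30c (0.663), rno-miR-133a* (0.653) and miR-133a (0.651). In single rats the r ran from 0.600 to 0.728 for rno-miR-22* with miR-499 and from 0.725 to 1.00 for rno-miR-208* with rno-miR-208_v15.0. rno-miR-22* was highest in liver and rno-miR-22 and rno-miR-30c in interseptum. Without the heart the r of rno-miR-22* with miR-499 was 0.645 over 53 organs. The members' own r was 0.999 between the entries of miR-208 and 0.659 between rno-miR-208_v15.0 and miR-499. Within the 8 striated muscle organs miR-499 had an r of 0.175 with miR-1, 0.231 with miR-133a, 0.180 with miR-133b and -0.509 with miR-206, and over the 47 other organs 0.210, 0.0356, 0.145 and 0.112. Many of these organ means are not measured levels. Of the 55 organs, miR-133a was detected on no array in 40, miR-206 in 35, miR-1 in 17 and miR-499 in 15. The r of -0.509 includes the 2 heart organs, where miR-206 was not detected. These r values therefore do not measure how far the microRNAs vary together.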

How the data were processed

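RNA of 55 rat organs was measured on 180 arrays. Per the file headers the authors scanned them in 1 colour and read them with Agilent Feature Extraction 10.7.3, and the deposited scanner files hold intensity values, background-subtracted but not normalized between arrays, together with 0 or 1 flags of each spot that the authors' software set. The authors also deposited a table of normalized signal values, scaled per array to a 75th percentile. Each of its columns was the scanner's total signal per microRNA times 1 factor for the array (0.411 to 10.5), on a linear scale 1.88 times the one used here. Over the microRNAs that the scanner software detected, the median deviation from this factor was at most 0.00712% on any array. The methods name a central tendency scaling, and the target value behind the factor was not used here. In addition, 2 of the 717 microRNAs are not in the part of the table used here. The table served as an alternative only. Columns of no sample numbered 0.

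The 14340 microRNA spots of each array were used. Outlier spots (1.63 to 6.42% per array, at most 6 of the members' 60) were left out, spots were averaged per probe sequence and then per microRNA, and each array was scaled so that the 75th percentile of the 37 microRNAs detected on all arrays was 2118. Before scaling this percentile ran from 68.0 to 6343 over the arrays. Values were then floored at 10.8, the median over arrays of the lowest detected signal, and taken to log2. A fold of a gene near the floor is therefore understated.

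Comparisons were fitted with limma 3.58.1 in R 4.3.3 (lmFit, eBayes), over the 12 heart arrays (132 microRNAs detected on all 3 arrays of a group) and over 24 arrays of 8 striated muscle organs of perfused rats (178 microRNAs), with p-values adjusted by the Benjamini-Hochberg method over all of them and a threshold of 0.05. All 3 members passed this filter in both. The fits were tested on simulated data with independent noise on each array and no floor. That simulation does not cover the effect of shared rats or of values at the floor. Same-numbered samples come from the same animal by their titles. Their deviations from the group means had a mean correlation of 0.746 between the heart parts (6 pairs, 0.404 to 0.938) and of 0.250 over the striated muscle organs (84 pairs, -0.297 to 0.889), against -0.366 and -0.124 for different rats. Rat as a block was an alternative. Arrays came from 23 slides and 3 scan days. Both heart parts of 5 of the 6 rats shared a slide. Heart and skeletal muscle arrays never did, so slide and organ cannot be told apart there. Slide as a random block was run as an alternative.

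The text names the members, the other arms of their precursors, a list of striated muscle microRNAs and, for each member, the 5 microRNAs of most similar pattern. rno-miR-486 was listed but had no entry on the design used. The members and lists were chosen with earlier results of these data known. Alternatives were other scalings, background, floor, filter, spot summary, blocks, arrays left out and the authors' table. For normexp the deposited median signals were used, with the median background. Sequences were matched through RefSeq synonyms. Python 3.11.15, pandas 2.3.3 and matplotlib 3.10.9 were used for summaries and plots.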

Additional observations from a re-analysis of the deposited data

How the results depend on the processing

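Each comparison was run under 14 to 16 other settings, 6 of them rats left out in the heart and 3 in muscle. With rat as a block (fixed, but random for the perfusion comparison) no call of a member changed, and the septum minus atrium difference of miR-499 stayed at -0.09 (adjusted p = 0.296). Scaling over all microRNAs took the median difference of all tested microRNAs from -0.08 to 0.07 in septum minus atrium, from -0.37 to 0 in soleus minus interseptum and from -0.43 to 0.46 in septum minus interseptum. The small heart differences turned sign with the scaling. Septum minus atrium for rno-miR-208_v15.0 was 0.041 in the authors' table, 0.0044 after quantile normalization and 0.088 scaled over all microRNAs. For rno-miR-208 it was 0.072 in the authors' table, 0.064 scaled over all and 0 with a floor 4 times higher, under which all its values lay at the floor and the perfusion difference was 0 too. For miR-499 it was 0.0077, 0.023 and 0.055 in the authors' table, after quantile normalization and scaled over all. Soleus minus interseptum was 0.16, 0.34 and 0.29 under the same 3 settings. The cause was not tested.

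With normexp, miR-499 differences were 1.19 (soleus minus gastrocnemial, adjusted p = 0.281), 1.41 (soleus minus femoris, 0.126), 1.34 (interseptum minus gastrocnemial, 0.598), 1.55 (interseptum minus femoris, 0.172), -1.13 (tongue minus gastrocnemial, 0.147) and -0.17 (esophagus minus gastrocnemial, 0.866), none of them called. Tongue and esophagus minus gastrocnemial muscle were both -0.78 with a floor 4 times higher (adjusted p = 0.0646 and 0.0502). In fits of only the organs compared, soleus and interseptum minus gastrocnemial muscle kept 2.69 and 2.82 but were not called (0.0800 and 0.110), and septum and atrium minus interseptum, 0.57 and 0.69, were (0.0365 and 0.0168). Scaling over all microRNAs also called septum minus interseptum (1.73), atrium minus interseptum (1.70) and septum minus soleus (1.44). Without the 8 arrays of doubtful rat number, soleus minus gastrocnemial muscle was 1.35 (not called), and femoris minus gastrocnemial muscle at -2.24 (neither femoris array left was well above background), septum minus soleus at 1.10 and atrium minus soleus at 1.21 were called. Soleus minus femoris was 3.59, interseptum minus gastrocnemial 1.87, interseptum minus femoris 4.11 and tongue minus gastrocnemial -3.13, all still called. Esophagus minus gastrocnemial was -3.18, with esophagus at the floor, and soleus minus interseptum -0.52, not called (adjusted p = 0.285).

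With 1 rat left out at a time, septum minus atrium ran from -0.12 to -0.03 for rno-miR-208, from -0.13 to 0.023 for rno-miR-208_v15.0 and from -0.11 to -0.06 for miR-499. Perfused minus not perfused ran from -0.055 to 0.32, from -0.038 to 0.13 and from 0.03 to 0.30. For miR-499, soleus minus gastrocnemial ran from 1.35 to 3.39, soleus minus femoris from 3.13 to 3.67, interseptum minus gastrocnemial from 2.02 to 3.29, interseptum minus femoris from 2.90 to 4.26, soleus minus interseptum from -0.67 to 0.23 and femoris minus gastrocnemial from -2.24 to 0.26. Septum minus soleus ran from 0.43 to 1.23, atrium minus soleus from 0.58 to 1.30, septum minus interseptum from 0.50 to 0.67 and atrium minus interseptum from 0.61 to 0.83. Tongue minus gastrocnemial ran from -3.11 to -1.61 and esophagus minus gastrocnemial from -3.18 to -1.68.

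Over all microRNAs the number called moved by over 1.5 times with the setting. Against 33 in soleus minus gastrocnemial it ran from 0 (normexp) to 53 (slide as a random block), against 62 in soleus minus femoris from 10 to 84, against 8 in interseptum minus gastrocnemial from 0 to 10, against 36 in interseptum minus femoris from 2 to 41 and against 51 in soleus minus interseptum from 4 (authors' table) to 60. It ran from 0 to 3 against 1 in femoris minus gastrocnemial and from 1 to 12 against 2 for perfusion. Between heart and muscle it ran from 23 to 114 against 87 (septum and soleus), from 31 to 115 against 88 (septum and interseptum), from 23 to 107 against 82 (atrium and soleus) and from 21 to 112 against 80 (atrium and interseptum), and it ran from 33 to 109 against 102 for tongue and from 41 to 140 against 121 for esophagus. In septum minus atrium it was 0 in all 16. The likeness of rno-miR-208* to rno-miR-208 was 0.987 and of rno-miR-22* to miR-499 0.629 on linear signals. Weak signals limit what can be said: in organs where a member was not well above background only a bound was given.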
